A study of Mus musculus with 3 samples.

Results

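The class I olfactory receptor cluster of mouse chromosome 7 was described here from 171 tiled regions of 28880 on the array. A tiled region was a run of at least 3 probes whose start positions lay at most 500 bp apart, and members had their midpoint between 109.6 and 112.6 Mb of chromosome 7 on mouse build mm9. The window from 110.94 to 111.03 Mb, which holds the beta globin genes, was left out with its 6 regions. The rule for members used position alone and no measured value, though it was set with earlier results of these data known. They held 2365 probes, with a median of 14 probes and 1339 bp per region, and the starts of neighbouring regions lay 791 to 93913 bp apart, with a median of 12901 bp.

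Olfactory receptors are G protein-coupled receptors that detect odorants, and each olfactory sensory neuron of the nose expresses as a rule 1 of them from 1 allele. The class I receptors resemble the olfactory receptors of fish and are the older branch of the family in vertebrates. In mammals they lie in a single cluster on both sides of the beta globin genes, and they are not a typical product of cortical neurons. The same stretch holds Trim genes, which encode RING-finger E3 ubiquitin ligases, among them antiviral factors of the Trim5 and Trim30 families. In mammals most cytosines of CpG dinucleotides are methylated outside CpG islands, and an antibody against 5-methylcytosine pulls down a fragment the better the more methylated CpGs it carries.

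Methylated DNA of the frontal cortex was measured in 3 arrays of 1 group, named cortex replicates 1 to 3. Each array held DNA pooled from 3 untreated male C57BL/6 mice of 2 months of age, so variation between single animals was not measured, and frontal cortex is a mixture of neurons and glia. The series title places the arrays in a study of promoter methylation and TBP binding. There was no second condition and no tissue that expresses olfactory receptors, so the comparisons are of bound with input DNA and of the cluster with other regions. Input DNA was labelled with Cy3 and DNA bound by an anti-5-methylcytosine antibody with Cy5 on every array, so a dye effect cannot be told apart from enrichment. Both fractions had been amplified before labelling. Each value is the log2 of bound divided by input signal, less that of the median probe of its array, so that 0 marks the median probe and not an unmethylated state. The error given with ± is the SD over the 3 arrays, whose small number limits the precision.

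The upstream sequences of the cluster's genes were read from RefSeq on build GRCm38.p6, to show how many CpGs, the sites of methylation, lie at these genes. Between Rrm1 and Fam160a2, the genes that border the cluster there, 217 entries are annotated. Of these 158 are olfactory receptor entries (126 protein-coding and 32 pseudogenes), 93 of them before and 65 after the globin genes. Besides 6 globin, 6 Usp17, 3 Ubqln and 31 other entries (22 of these others are pseudogenes), there are 13 Trim entries. Trim21 and Trim68 come first, before the globin genes, and Trim6, Trim34a, Trim5, Trim12a, Trim34b, Trim12c, Trim30b, Trim30c, Trim30a, Trim30d and Trim30e-ps1 follow in that order after them. Positions on that build are not those of the array, and no tiled region was assigned to a gene. Upstream sequences matched 109 olfactory genes and 12 Trim genes (13 starts). Of the 126 protein-coding olfactory genes 91 are annotated as under 1000 bp long, and 90 of these lengths are multiples of 3. For such models, which hold no UTRs, the upstream window precedes the coding start and may miss the promoter.

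The sequences below are the 250 bases before the annotated start, 5′ to 3′ along the gene's strand, with CpG dinucleotides in capitals. Olfr681 (chr7:105121209-105121458, plus strand) is 1 of the olfactory genes with the most CpGs, 4. Olfr67 (chr7:103791831-103792080, minus strand) is a neighbour of the globin genes and has 2. Olfr583 (chr7:103051050-103051299, plus strand) has none and a GC content of 22.8%. Trim68 (chr7:102687328-102687577, minus strand) has 12, the most among the Trim genes, and Trim30a (chr7:104465194-104465443, minus strand) has none.
Olfr681: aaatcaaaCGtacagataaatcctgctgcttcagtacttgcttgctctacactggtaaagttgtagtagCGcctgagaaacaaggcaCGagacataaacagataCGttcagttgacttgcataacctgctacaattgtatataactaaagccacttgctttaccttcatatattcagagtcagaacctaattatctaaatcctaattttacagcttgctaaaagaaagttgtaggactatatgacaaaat
Olfr67: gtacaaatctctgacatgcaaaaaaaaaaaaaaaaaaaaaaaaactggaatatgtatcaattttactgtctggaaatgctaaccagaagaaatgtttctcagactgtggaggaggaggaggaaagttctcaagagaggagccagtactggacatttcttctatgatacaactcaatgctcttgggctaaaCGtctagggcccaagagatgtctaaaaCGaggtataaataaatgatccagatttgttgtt
Olfr583: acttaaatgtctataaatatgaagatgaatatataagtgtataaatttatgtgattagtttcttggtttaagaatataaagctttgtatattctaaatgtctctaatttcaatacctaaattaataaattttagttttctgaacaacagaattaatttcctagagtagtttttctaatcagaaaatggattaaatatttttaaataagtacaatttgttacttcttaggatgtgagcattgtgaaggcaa
Trim68: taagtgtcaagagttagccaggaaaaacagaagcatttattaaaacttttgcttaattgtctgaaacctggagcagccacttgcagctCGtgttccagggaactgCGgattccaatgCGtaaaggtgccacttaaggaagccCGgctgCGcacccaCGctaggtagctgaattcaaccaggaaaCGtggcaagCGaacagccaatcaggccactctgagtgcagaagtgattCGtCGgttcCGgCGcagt
Trim30a: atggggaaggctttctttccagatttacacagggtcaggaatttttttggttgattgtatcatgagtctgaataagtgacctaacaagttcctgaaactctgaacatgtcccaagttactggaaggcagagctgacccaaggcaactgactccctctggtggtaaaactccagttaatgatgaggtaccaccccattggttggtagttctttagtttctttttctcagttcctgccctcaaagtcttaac

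Upstream of the 109 olfactory genes the number of CpGs ran from 0 to 4 with a median of 1, and 45 (41.3%) had none. Over all 32851 upstream sequences of the RefSeq table the median was 6, 7.87% had none and 55.6% had at least 5, a number that no olfactory gene of the cluster reached. The median GC content was 36.4% against 52.4% over the whole table. The motif TATAAA, searched on both strands, was found upstream of 41 olfactory genes (37.6%), against 12.4% of all sequences of this length and 13.2% of the other sequences of chromosome 7. A match of these letters is a description of AT-rich sequence and not a binding site, and in Olfr583 and Olfr67 printed above it is present. The 13 Trim starts had 0 to 12 CpGs with a median of 1, and 1 of them (7.69%) held TATAAA.

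**Figure D1:**
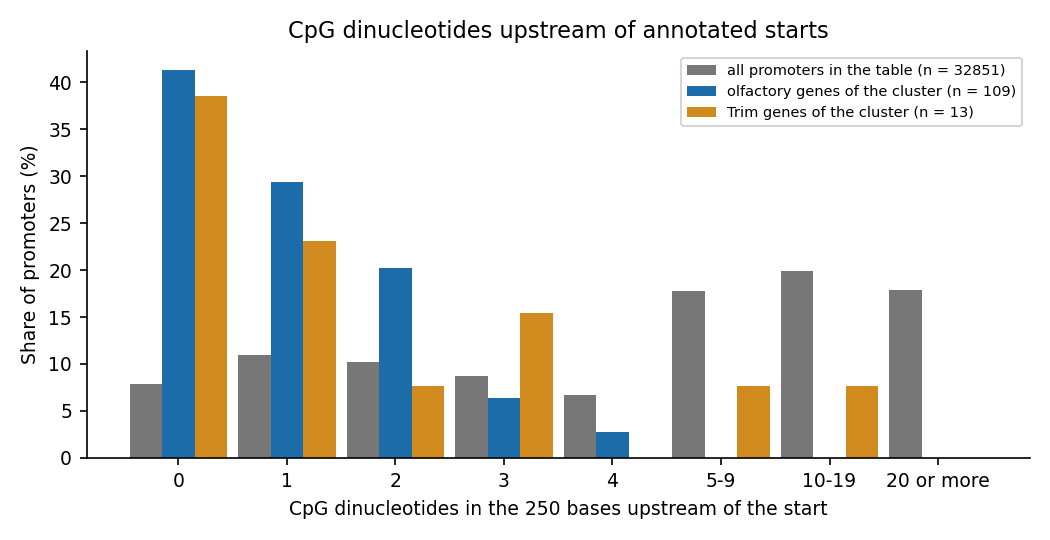
Share of annotated starts (vertical axis, %) by the number of CpG dinucleotides in the 250 bases upstream (horizontal axis), for all 32851 RefSeq sequences, the 109 olfactory genes and the 13 Trim starts of the cluster. The olfactory genes lie between 0 and 4 CpGs, whereas 55.6% of all sequences have at least 5.

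Much of the cluster gave little signal on the array, also in the input channel, which holds DNA that was not selected for methylation. The median log2 input signal was 7.65 over the cluster's probes and 9.48 over those of the other 2358 regions of chromosome 7, and the bound signal was 7.07 against 8.93. The input was well above background on 61.6%, 42.8% and 42.6% of the cluster's probes in replicates 1, 2 and 3, against 85.4%, 72.8% and 72.8% on the rest of the chromosome. The bound signal was well above background on 45.4%, 28.1% and 28.0% against 68.7%, 51.4% and 55.0%. The cluster was the dimmer set on every array and in both channels. In 37.1% of its probes (877) neither channel rose above background on any array, against 12.7% of the probes elsewhere on chromosome 7. Such probes are called unmeasured below, since neither signal of their ratio was well above background. Which of them carry the scanner software's substitutes for signals near background was not read here.

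The probes of this array are 45 to 60 nt long, and 65.6% of the cluster's probes had the full 60 nt against 27.0% elsewhere on chromosome 7. Their sequences were not used here, so the part of base composition or probe length in the dim signal was not tested. The olfactory receptor genes of chromosome 2, which are class II and were taken as the 259 regions between 85 and 90 Mb, were dimmer still, with a median log2 input of 6.42, input above background on all arrays in 17.2% of probes and 88.0% of probes of 60 nt. Among probes whose input was above background on all arrays, the bound signal was too in 62.1% of the cluster's (588 of 947) and in 67.5% of the others on chromosome 7. Regions in which a share of at least 0.5 of the probes was unmeasured made up 49 of the 171 members (28.7%), against 7.08% on the rest of the chromosome, and 158 members had at least 1 such probe. These traits were not particular to the cluster. In the distal flank, the 3 Mb after the window, 33.2% of probes and 32.6% of regions were of these kinds, and 58.7% of probes had 60 nt. In the proximal flank, the 3 Mb before it, the values were 7.54%, 0.95% and 19.1%.

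With all probes used, the cluster sat at the array median. Its mean log2 ratio was -0.06 in replicate 1, 0.11 in replicate 2 and 0.02 in replicate 3 (0.02 ± 0.08, SD, n = 3). The other regions of chromosome 7 had -0.05, -0.02 and -0.05 (-0.04 ± 0.02). The arrays of the 2 sets overlap, and the difference of 0.06 ± 0.07 (cluster higher on 2 of 3 arrays) gave p = 0.5 when the signs of the arrays were flipped in all ways (exact permutation test, two-sided), which with 3 arrays cannot go below 0.25. It was 0.10 without replicate 1, 0.03 without replicate 2 and 0.06 without replicate 3. Over probes with input above background the sign turned, with -0.09, -0.28 and -0.33 in the cluster against -0.06, -0.21 and -0.22, a difference of -0.07 ± 0.04 over 138 regions (exact p = 0.25). In the authors' deposited log2 ratios it was -0.36 ± 0.05, and -0.08 ± 0.06 once the input filter was applied to them. The difference stayed positive with other corrections of the signals, normexp (0.009) and loess (0.04), and with medians over probes (0.14). The direction of the whole cluster against its chromosome thus differed between settings, and the cause was not tested.

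The cluster's regions were spread less in value than the other regions of chromosome 7. The SD among members was 0.54 against 0.80, and 131 of 171 (76.6%) lay within 0.5 of the array median against 46.1%. With the input filter the SDs were 0.80 and 1.00. The spread was not particular to the cluster: the SD was 0.52 in the distal flank, 0.75 in the proximal flank and 0.31 in the class II window of chromosome 2, where 92.7% of regions lay within 0.5. Members had the same sign on all 3 arrays in 66.7% of cases, compared with 81.4% for the rest of the chromosome. With limma's test and Benjamini-Hochberg adjustment over all 28880 regions, 39 members (22.8%) were higher and 37 (21.6%) lower than the array median at an adjusted p under 0.05. The background was 28% higher and 38.1% lower over all regions, and 30.5% and 40.2% on the rest of chromosome 7. At least 2-fold and called, 5 members (2.92%) were higher and 7 (4.09%) lower, against 8.84% and 8.12% over all regions and 10.3% and 9.63% on the rest of chromosome 7. Without replicate 2 the higher members numbered 23. The split of calls moved with the setting and in both directions. With 0 set at each array's mode, which lay at 0.625, 0.775 and 0.575 on this scale, there were 5 higher and 140 lower. Single probes with neither channel above background had ratios near these modes in some cases, such as 0.69, 0.79 and 0.61 at 110937300. Others did not, such as -0.48, -0.40 and -1.69 at 110937627 in the same region. Averaged over the cluster's probes with a log2 input under 7, the ratios were 0.17, 0.60 and 0.47 by array. Whether substituted values set the modes was not tested. With the deposited ratios the counts were 17 and 96. With medians over probes there were 51 higher and 24 lower, and with both channels above background 50 and 18 of 98 members. Shares over all regions were not taken in these settings, so their counts cannot be set beside a background. With both channels above background the mean was 0.32 in the cluster and 0.34 in the other regions of chromosome 7. Of the 39 higher members, 9 had a share of at least 0.5 of their probes unmeasured, as had 3 of the 37 lower.

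Restricted to probes with input above background, 138 members kept at least 3 probes, and lower calls became more frequent than higher ones. Then 70 members (50.7%) were lower and 29 (21%) higher, with the background at 47.9% and 29% over all regions and 47.2% and 32.7% on the rest of chromosome 7. The share of lower calls is thus near the background. Of the class II regions of chromosome 2 only 93 of 259 kept 3 such probes, and 72 of these (77.4%) were lower.

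The relation of the log2 ratio to the input signal was compared probe by probe in bins of mean log2 input. In the dimmest bin, under 7, lay 40.9% of the cluster's probes and 14.2% of the others on chromosome 7. Their mean ratios were 0.41 ± 0.22 and 0.39 ± 0.28, both above the array median, although none of the cluster's probes in it had bound signal above background on all arrays. Between 8 and 9 the cluster's probes were lower than the others on each array, at -0.51, -0.56 and -0.57 against -0.30, -0.36 and -0.30 (difference -0.22 ± 0.04, n = 3). From 9 to 10 the difference was -0.03 ± 0.05, and from 10 to 11 it was -0.09 ± 0.04. At 11 and above, where 8.41% of the cluster's probes lay, the cluster was the higher, by 0.17, 0.14 and 0.06 on the 3 arrays (0.12 ± 0.06). From 7 to 8 it was lower by 0.21, 0.07 and 0.09 (-0.12 ± 0.07). The difference thus changed sign along the input signal and was largest in size between 8 and 9.

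**Figure D2:**
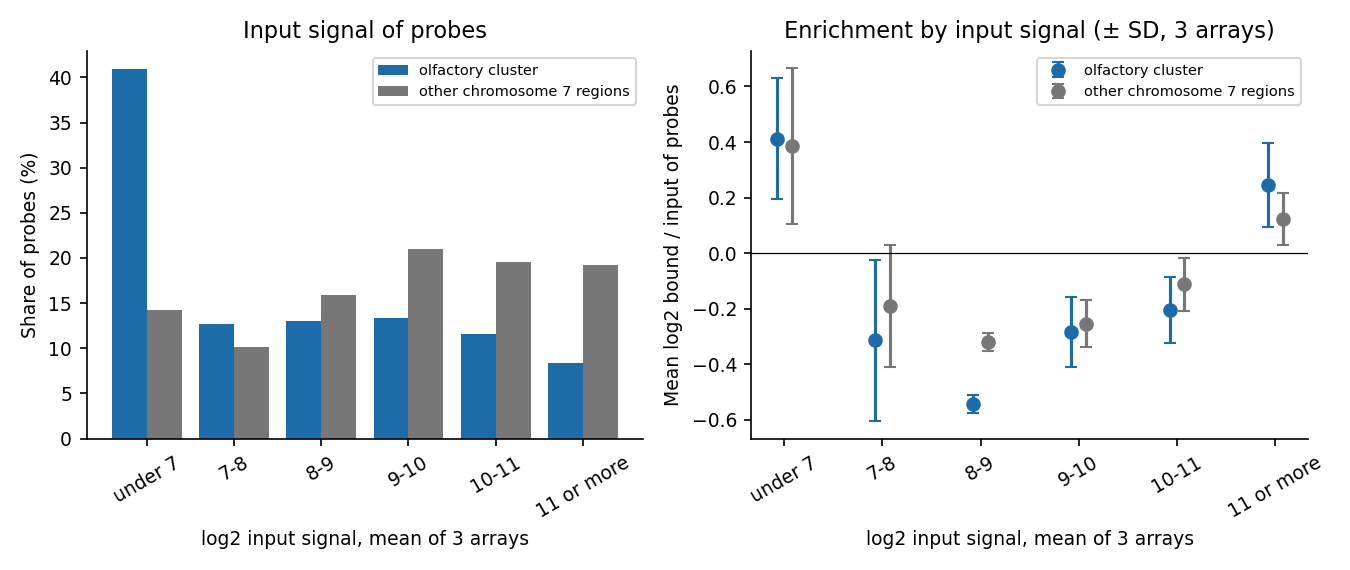
Left, share of probes (%) by mean log2 input signal over the 3 arrays, for the olfactory cluster and the other regions of chromosome 7. Right, mean log2 ratio of bound over input in each bin with the SD over 3 arrays as bars: 40.9% of the cluster's probes have an input under 7, where both sets average near 0.4, and the sets differ most between 8 and 9, at -0.54 against -0.32.

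The cluster was set beside its neighbourhood and beside the class II genes. The 105 regions of the proximal flank, the 3 Mb before the window, had 0.18, 0.14 and 0.05 on the 3 arrays (0.12 ± 0.07), and the cluster was lower by 0.24, 0.03 and 0.03 (difference -0.10 ± 0.12, lower on 3 of 3 arrays; -0.03 without replicate 1). With medians over probes it was -0.02 ± 0.16 and higher on 2 of 3 arrays, and in the deposited ratios it was -0.61 ± 0.03. The 86 regions of the distal flank had -0.34, -0.13 and -0.11 (-0.19 ± 0.13), and the cluster was higher by 0.29, 0.23 and 0.12 (0.21 ± 0.08). Over probes with input above background the cluster again lay between its flanks, at -0.32 ± 0.02 relative to the proximal and 0.41 ± 0.05 relative to the distal flank. The exact sign-flip p was 0.25 in each of these 4 comparisons, the smallest that 3 arrays allow. Relative to both flanks together the cluster differed by 0.04 ± 0.04, and by -0.05 ± 0.01 with the input filter.

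Against the class II genes of chromosome 2 the difference was 0.02 ± 0.08 over all probes (0.11, -0.02 and -0.04 by array; -0.03 without replicate 1). With the input filter the class I cluster was higher by 0.52, 0.53 and 0.55 (0.53 ± 0.02, exact sign-flip p = 0.25), with levels of -0.23 against -0.77. That value rests on 138 and 93 regions, so most class II regions are not in it. In the deposited ratios the difference was 0.45 ± 0.05. With both channels required above background, 16 class II regions remained and the difference was 0.12 ± 0.09.

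**Figure D3:**
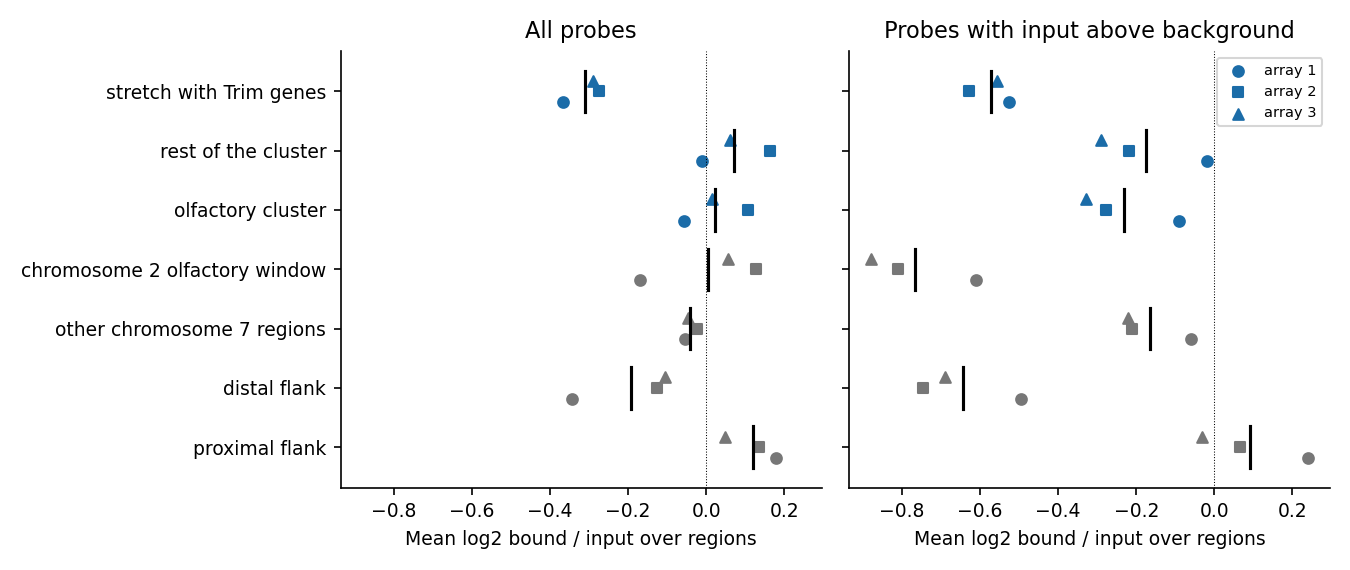
Mean log2 ratio over the regions of each set on each array (points; the line is the mean of 3 arrays), from all probes (left) and from probes with input above background (right). With all probes the cluster, the other regions of chromosome 7 and the class II window of chromosome 2 lie around 0; with the input filter the class II window and the distal flank are at -0.77 and -0.64 and the cluster at -0.23. The stretch with Trim genes is lower than the rest of the cluster in both panels, a direction that turned in the deposited ratios.

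Over the whole cluster Pearson's r between the values of adjacent members was 0.02 (170 pairs, which share arrays and are not independent). The 86 members proximal of the globin window averaged 0.03 ± 0.11 and the 85 distal of it 0.01 ± 0.05. The difference was -0.05, 0.07 and 0.04 by array (0.02 ± 0.06), it was -0.001 without replicate 2, and with the input filter it was -0.13 ± 0.01. The proximal members were dimmer, with a median log2 input of 7.16 against 8.23. The first and last 0.3 Mb of the window, with 20 and 12 members, averaged 0.14 ± 0.07 and 0.21 ± 0.10 and were brighter than the cluster as a whole, at a median log2 input of 8.67 and 9.14. The distance of a member from the array median went up with its input signal (r = 0.45 between the absolute mean ratio and the median log2 input over 171 members, which share arrays).

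**Figure D4:**
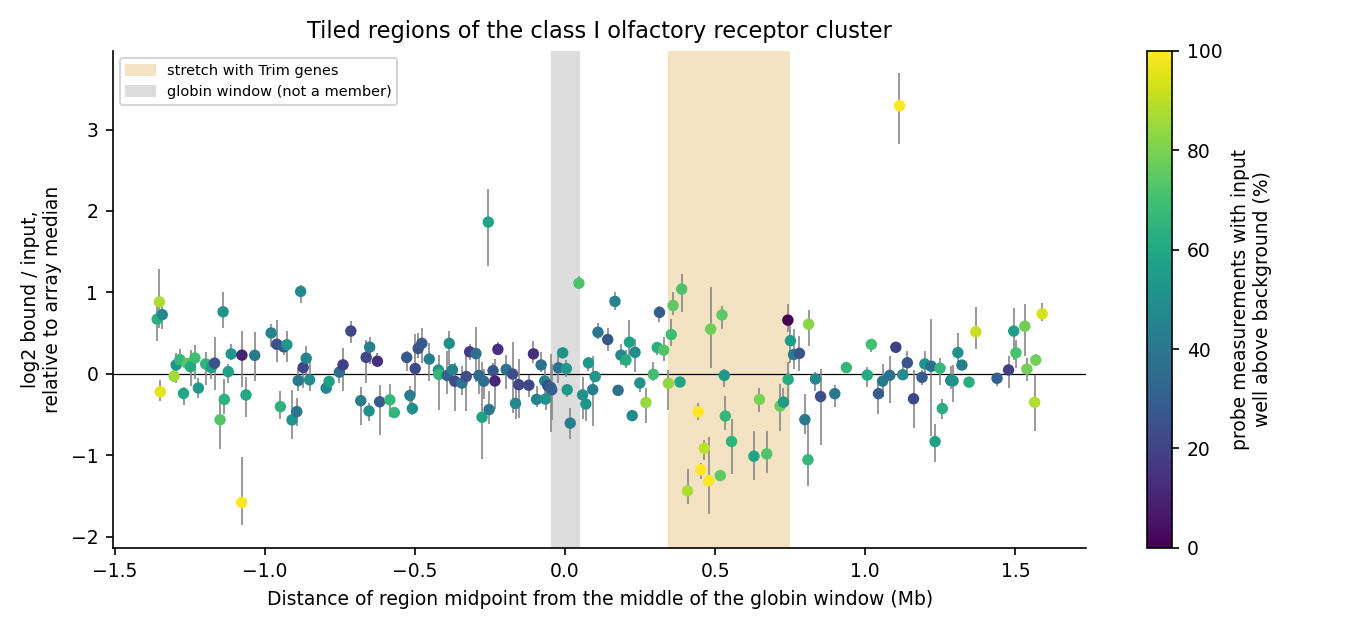
Mean log2 ratio of each tiled region (points) with the lowest and highest array (vertical lines), by the distance of its midpoint from the middle of the globin window; colour gives the share of probe measurements with input well above background. Most regions lie within 0.5 of 0, 1 distal region stands at 3.29, and 5 of the 7 members at -1 or below lie in the shaded stretch 0.3 to 0.7 Mb distal of the globin window.

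The stretch 0.3 to 0.7 Mb distal of the globin window (111.33 to 111.73 Mb) is where the Trim5 and Trim30 genes are placed from general knowledge of the locus, without an annotation of this build. Its 22 members are 12.9% of the cluster. They averaged -0.37, -0.27 and -0.29 (-0.31 ± 0.05), against -0.01, 0.16 and 0.06 for the other 149 (0.07 ± 0.09). The groups of arrays do not overlap, and the difference was -0.36, -0.44 and -0.35 (-0.38 ± 0.05, exact sign-flip p = 0.25, lower on 3 of 3 arrays). In this stretch 13 of 22 members (59.1%) were called lower and 6 higher, whereas in the rest of the cluster 24 of 149 (16.1%) were lower and 33 higher. Over all regions 38.1% were lower and 28% higher, and on the rest of chromosome 7 40.2% and 30.5%, so the stretch lay above and the rest of the cluster below that share of lower calls. With both channels above background 5 of 16 members of the stretch were lower, but no share over all regions was taken with that filter. The stretch then averaged -0.007 and the other regions of chromosome 7 0.34, so the shares above do not apply to it. Of the 7 members at least 2-fold below the array median, 5 lay in it. The stretch was the brighter part, with a median log2 input of 9.16 and 60.7% of probes with input above background on all arrays, against 7.40 and 37.3% in the rest. With only such probes the difference was -0.40 ± 0.12 and 16 of its 20 members were lower, against 47.9% of all regions and 47.2% on the rest of chromosome 7 with the same filter. In the deposited ratios the stretch was higher by 0.12 ± 0.11 (-0.32 ± 0.10 once the input filter was applied).

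The stretch was also compared with the rest at equal input signal. At a log2 input of 11 or more its 31 probes averaged -0.38, -0.50 and -0.46, and the 168 probes of the rest of the cluster 0.52, 0.42 and 0.18. Between 10 and 11 its 59 probes had -0.52 ± 0.05 and the other 215 had -0.12 ± 0.14. Between 8 and 9 the order was the opposite, at -0.31 ± 0.12 against -0.58 ± 0.06. The stretch was lower than the rest in its bright probes and not at every input level. Trim21 and Trim68 are placed at the start of the cluster, and the first 0.3 Mb of the window, at 0.14 ± 0.07, had 2 lower and 4 higher calls among 20 members (10% and 20%), both below the shares over all regions.

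In the Trim stretch some regions called lower lay next to each other, in runs that were found after the calls were seen. Lower calls made up 38.1% of all regions and 40.2% of those on the rest of chromosome 7. How often runs of this length occur elsewhere was not counted. From chr7:111392456 to 111464386, 5 regions in a row were called lower by limma's test with Benjamini-Hochberg adjustment, and from chr7:111518145 to 111712967 a further 7 in a row, with means of -0.31 to -1.01. Neither run held in every setting. The first lost its second region, chr7:111428075-111428298, without replicate 2 (-0.42, adjusted p = 0.057), with both channels above background (-0.17) and in the deposited ratios (0.052). Of the second run only chr7:111631721-111633152 was followed through the alternatives. It lost its call without replicate 1 (-0.24, adjusted p = 0.13 in limma's test) and without replicate 2 (-0.32, adjusted p = 0.15). The call was also lost with medians, with both channels, in the deposited ratios and under loess, where the region was at 0.037. The other lower region, chr7:111501688-111502282, lay between these runs at -1.24, -1.32 and -1.18 (-1.25 ± 0.07), with bound signal above background in 9 of 24 probe measurements, so that its depth is a bound. The first region of the proximal run, chr7:111392456-111393295, had -1.60, -1.16 and -1.55 (-1.44 ± 0.24, adjusted p = 1.98e-06). Its first 3 probes had -0.17 to 0.18 and the other 10 had -0.36 to -3.25. The lowest, at 111392916, had a log2 input of 10.47 and a bound signal above background on no array, so its value is a bound. The next region, chr7:111428075-111428298, had -0.47, -0.57 and -0.36 (-0.47 ± 0.10). At chr7:111436401-111437056 the values were -1.10, -1.29 and -1.15 (-1.18 ± 0.10, adjusted p = 4.52e-06), with input above background in 33 of 33 probe measurements and bound signal in 24. There the first 10 probes had -0.30 to -2.10 and the last had 0.48.

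The last 2 regions of this run had input above background in 27 of 30 and 12 of 12 probe measurements. The region chr7:111448137-111448958 had -0.81, -0.87 and -1.06 (-0.91 ± 0.13), and chr7:111463799-111464386 had -1.71, -0.78 and -1.44 (-1.31 ± 0.48). On both sides of the proximal run members were higher than the array median. Proximal of it, chr7:111344257-111345624 had 0.72, 0.79 and 1.01 (0.84 ± 0.15) and chr7:111372821-111374208 had 1.22, 1.15 and 0.76 (1.04 ± 0.25). Along chr7:111344257-111345624 the probes went from 2.89 at the proximal end to -1.49 and -1.14 at the distal end. Distal of it, chr7:111469703-111469985 had 1.06, 0.07 and 0.52 (0.55 ± 0.50), a spread about as wide as its mean and no call without replicate 1 (0.29, adjusted p = 0.079), and chr7:111506945-111508375 had 0.78, 0.56 and 0.84 (0.72 ± 0.15). The 3-probe region chr7:111726979-111727244 was also called higher, at 0.66 ± 0.18, although neither channel was above background in any of its 9 probe measurements, so that call rests on signals near background.

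The highest member of the cluster lay distal of the Trim stretch, at chr7:112098687-112098949. It had 3.69, 3.36 and 2.83 on the 3 arrays (3.29 ± 0.44), which is 9.79 times the array median, with an adjusted p of 3.79e-08 in limma's test with Benjamini-Hochberg adjustment. Its 4 probes were all above background in both channels on every array, and their means were 3.36, 3.37, 3.27 and 3.17, so the ratio was high over the whole 263 bp. Under loess the region was at 1.88 and under normexp at 2.70. It exceeded the highest value among the other regions of chromosome 7, which was 2.93, but not the highest among all other regions of the array, 3.90. Without this region the mean difference between the cluster and the rest of the chromosome was 0.04 in place of 0.06. The log2 ratio is not a percentage of methylation.

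The next highest member, chr7:110729084-110729732, lay proximal of the globin window and had 2.27, 2.01 and 1.32 (1.86 ± 0.49, 3.64 times the array median; 1.13 under normexp). It was not even along its 4 probes, whose means went from 0.36 and 1.24 at the proximal end to 2.51 and 3.35 at the distal end. The last 2 of them were above background in both channels on all arrays, whereas the first was above background on none. Directly beside the globin window on its distal side, chr7:111030536-111031955 had 1.10, 1.05 and 1.20 (1.11 ± 0.08, 2.16 times the array median), with arrays that differed by little. On the proximal side the nearest member, chr7:110936623-110937974, had -0.71, 0.24 and -0.03 (-0.17 ± 0.49), was not called and had input above background in 16 of 51 probe measurements. It was called lower with the input filter (-0.50), in the deposited ratios (-0.83) and with 0 at the mode (-0.82). The distal member was high on every array, while the proximal one had no sign common to the arrays.

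The members at the ends of the window were both above the array median, though with 0 at the mode neither was called (0.014 for the first and 0.078 for the last) and under loess the last was not (0.19). The first, chr7:109626223-109627160, had 0.76, 0.85 and 0.41 (0.67 ± 0.24), and the next, chr7:109633507-109634832, had 1.28, 0.80 and 0.57 (0.88 ± 0.36). The last, chr7:112573231-112574545, had 0.70, 0.87 and 0.65 (0.74 ± 0.12). Just outside the window the nearest region on the proximal side, chr7:109589712-109590403, had -0.91 ± 0.39 and the nearest on the distal side, chr7:112630566-112631605, had 0.03 ± 0.16. Inside the globin window the first and last regions had -0.20 ± 0.34 and -0.60 ± 0.19.

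Few low members outside the Trim stretch were well measured. The lowest of the whole cluster, chr7:109907812-109908121, had -1.86, -1.02 and -1.86 (-1.58 ± 0.48), with input above background in 15 of 15 probe measurements and bound signal in 6, so its depth is a bound. It was singled out after its value was seen, as was chr7:111793657-111794132 at -1.05 ± 0.41, the other 2-fold lower member outside the stretch. Of the better measured members called lower, chr7:110400821-110402210 had -0.52, -0.13 and -0.30 (-0.32 ± 0.20) and chr7:112548341-112549693 had -0.02, -0.70 and -0.33 (-0.35 ± 0.34), and both were close to the threshold, with adjusted p of 0.039 and 0.045 in limma's test with Benjamini-Hochberg adjustment. The call of chr7:110400821-110402210 was lost without replicate 1, 2 or 3 (adjusted p of 0.17, 0.059 and 0.089 in the same test) and with medians. That of chr7:112548341-112549693 was lost without replicate 2 or 3, under normexp and loess and with medians. It was also lost in the deposited ratios (-0.0008) and with both channels (0.13). In the Trim stretch, chr7:111631721-111633152 had -0.47, -0.30 and -0.17 (-0.31 ± 0.15, adjusted p = 0.037).

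Many regions of the array are of similar length, and in the other regions of chromosome 7 their centre was less enriched than their edges. Standard regions were those of 1000 to 1800 bp and at least 8 probes, the centre was within 200 bp of the midpoint and the edges beyond 500 bp from it. In 1394 such regions elsewhere on chromosome 7 the centre minus the edges was -0.29, -0.19 and -0.17 (-0.22 ± 0.06). In the 119 of the cluster it was -0.14, 0.08 and 0.06 (-0.0024 ± 0.12), so that no dip appeared beyond the spread of the arrays. The difference between the 2 sets was 0.15, 0.27 and 0.23 (0.22 ± 0.06, exact sign-flip p = 0.25). The centre was called lower than the edges in 20 members (16.8%) and higher in 17 (14.3%), with a background of 33.4% and 14.7% over all standard regions and 32.9% and 18.1% on the rest of chromosome 7. Without replicate 2 the counts were 12 lower and 11 higher.

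This comparison moved with the input signal along the regions. In the cluster the input was above background in 26% of probes within 100 bp of the midpoint and in 58.3% at 600 to 700 bp, and the median log2 input went from 6.89 to 9.0. Elsewhere on chromosome 7 the same shares were 65.7% and 69.5%. Over probes with input above background, which left 28 cluster regions with enough probes, the centre of the cluster's regions was lower than the edges by 0.19, 0.20 and 0.23 (-0.20 ± 0.02), against -0.31 ± 0.04 in the 920 others, a difference of 0.10 ± 0.06. In the deposited ratios the order turned, with -0.50 ± 0.02 in the cluster and -0.27 ± 0.02 elsewhere. Probes with input above background at 300 to 400 bp from the midpoint had the lowest mean of the cluster's profile, -0.47 ± 0.09, where the others on chromosome 7 had -0.09 ± 0.08. At 600 to 700 bp the sets had 0.12 ± 0.14 and 0.08 ± 0.10, and did not differ beyond the spread of the arrays.

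**Figure D5:**
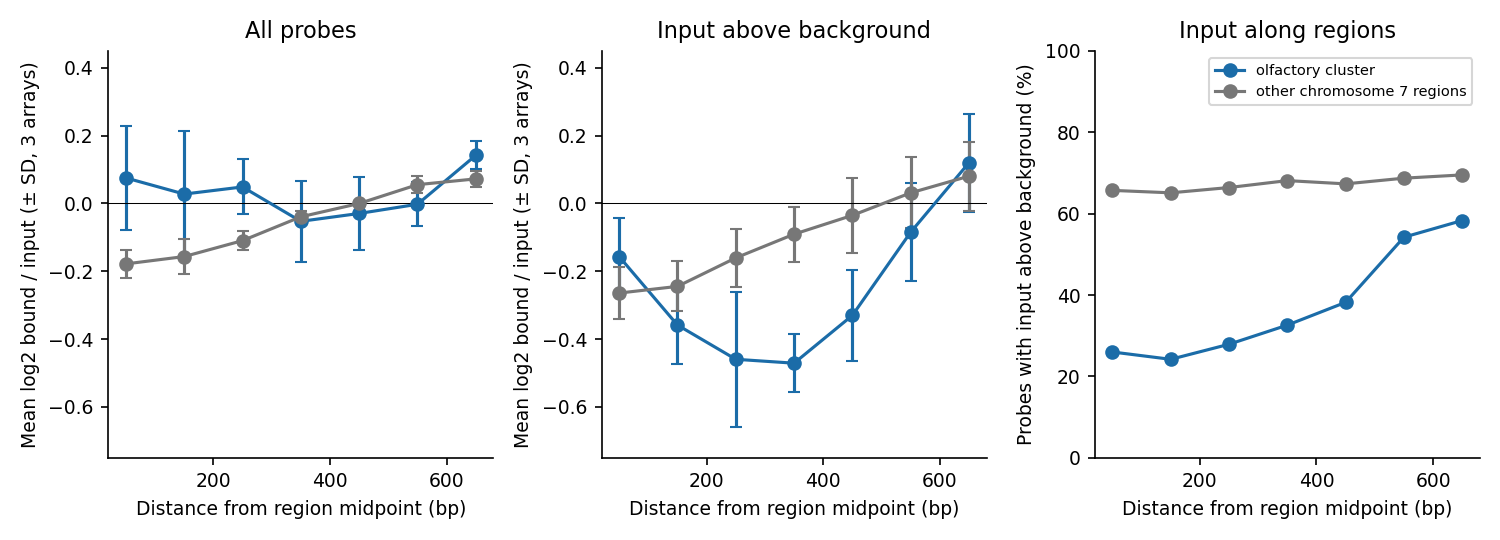
Mean log2 ratio with the SD over 3 arrays by distance from the region's midpoint (bp), for all probes (left) and probes with input above background (middle), and the share of probes with input above background (right, %). The cluster's curve is near 0 at the midpoint with all probes; with the input filter it falls to -0.47 at 300 to 400 bp and is 0.12 at 600 to 700 bp, while its share of measured probes rises from 26% to 58.3%.

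Single members differed between centre and edges in both directions. These were picked as the largest differences after their values were seen. At chr7:110366939-110368263 the centre had 0.28 and the edges -1.33, a difference of 2.16, 1.28 and 1.38 by array (1.61 ± 0.48). Its bound signal was above background in 2 of 51 probe measurements and its input in 15, so this difference rests mostly on signals near background. At chr7:109849690-109851004 the centre had -0.77 and the edges 0.88, a difference of -2.11, -1.15 and -1.69 (-1.65 ± 0.48), with input above background in 31 of 48 measurements and bound signal in 20. The member beside the globin window on its distal side, chr7:111030536-111031955, had 1.67 at its centre and 0.26 at its edges (1.41 ± 0.62). Its edges were unlike each other, with -0.27 and -0.73 in the proximal probes and 1.79 in the distal probe. The input of that distal probe was above background on 1 array. From 111031224 to the distal end all probes had 1.79 to 2.40, so only the proximal edge was low. The last member of the window, chr7:112573231-112574545, was lower at its centre, with 0.20, than at its edges, with 1.27 (-1.08 ± 0.61). All 3 arrays had the same sign in each of these 4 regions.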

How the data were processed

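Per the file headers, the deposited scanner files hold spot intensities of a custom mouse mm9 design, extracted with Agilent Feature Extraction 10.7.3.1. The processed intensity of each channel is background-subtracted and dye-normalised per the file headers, with substitutes for signals near background. The authors' deposited table of log2 ratios followed the log2 of Cy5 over Cy3 spot medians after background subtraction (r of 0.9994 to 0.9998), and had column medians of -0.97, so its direction is bound over input and its centring and normalisation are not given in the sources used here. Neither is the way in which probes were placed.

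Per the labels' protocols, 2 µg of pooled DNA was sonicated, precipitated with 10 µg of antibody and 50 µl of protein G, and both fractions were amplified. The titles number the replicates 1 to 3 but the descriptions call each array replicate 1, so if arrays share a pool, p-values measure only the spread between arrays.

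The log2 ratio of Cy5 over Cy3 processed intensity was taken per spot without outlier and control spots, centred on each array's median, averaged per probe (409606 probes) and then over each region. Regions were tested with limma's 1-group fit against 0 and Benjamini-Hochberg adjustment over all 28880 regions (limma 3.58.1, R 4.3.3), tested on simulated data first. Sets were compared per array with an exact two-sided sign-flip test. Alternatives were normexp with an offset of 50 on spot medians (the files hold no spot means), loess, the deposited ratios, filters on input or both channels, medians over probes, other region rules, 0 at the mode, and leaving out each array. Regions named are up to 10 highest and 10 lowest members past the threshold with 1 sign on all arrays, first those whose probes each rose above background with Cy3 and Cy5 on 1 array or more, then those with a share of at least 0.5 of such measurements, which left 8 lower ones, and those at the window's ends and beside the globin window. The members and lists were chosen with earlier results of these data known, and the input bins, the combined filter on deposited ratios and some alternatives of the Trim stretch after the data were seen. Tests by gene were not made, because no annotation of build mm9 was used here.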

Additional observations from a re-analysis of the deposited data

How the results depend on the processing

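The difference of the cluster from the other regions of chromosome 7 (0.06) was -0.36 in the deposited ratios, -0.068 with the input filter, -0.019 with both channels above background, -0.085 with deposited ratios and input filter, and 0.14 with medians over probes. From all other regions (0.07) it was -0.32 in the deposited ratios and -0.059 with the input filter. From both flanks (0.04) it was -0.23, -0.048, -0.0010 with at least 8 probes and 0.089 with medians. From the class II genes (0.02) it was 0.45 in the deposited ratios, 0.53 with the input filter, 0.12 with both channels and -0.048 with medians. Proximal minus distal of the globin window (0.02) was -0.018 under normexp, -0.29 in the deposited ratios, -0.0048 under loess, -0.13 with the input filter and -0.14 with both channels. The centre minus edges of the cluster (-0.0024) was -0.50, -0.20 (input filter), -0.22 (both channels) and 0.045 (medians). Its difference from chromosome 7 (0.22) was 0.10 under normexp, -0.22 in the deposited ratios, 0.10 with the input filter, 0.034 with both channels, 0.28 with medians and 0.054 with deposited ratios and input filter. The Trim stretch minus the rest (-0.38) was -0.16 under normexp, 0.12 in the deposited ratios, -0.25 under loess and -0.32 with deposited ratios and input filter.

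The 39 higher calls became 17 in the deposited ratios, 5 with 0 at the mode and 5 at 2-fold, and 51 with medians and 50 with both channels. The 37 lower calls became 96 in the deposited ratios, 70 with the input filter, 18 with both channels, 24 with medians, 140 with 0 at the mode and 7 at 2-fold. A setting that left out stretches with Trim genes had 22 lower calls. It kept 129 members, fewer than the 149 outside the stretch described above. Centres higher than edges (17) became 11 in the deposited ratios, 7 with the input filter and 3 with both channels, and centres lower (20) became 40, 11 and 5. Lower calls in the Trim stretch (13) became 5 with both channels, where 16 members remained. Shares over all regions are given above for region calls with the input filter and at 2-fold. The other alternatives have no such share, so their counts cannot be set beside a background.

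Leaving out 1 array gave 0.030 to 0.096 against chromosome 7, 0.034 to 0.11 against all others, 0.018 to 0.062 against the flanks, -0.031 to 0.046 against the class II genes, -0.00099 to 0.056 for proximal minus distal, -0.041 to 0.067 for centre minus edges, 0.19 to 0.25 for its difference from chromosome 7, -0.40 to -0.35 for the Trim stretch, 23 to 40 higher and 28 to 31 lower calls, 11 to 20 centres higher, 12 to 17 centres lower and 11 lower calls (each array) in the Trim stretch. Of the alternatives for single named regions 151 kept direction and call, 24 lost and 3 gained the call (the 3 are lower calls of chr7:110936623-110937974), and 6 turned sign: chr7:110936623-110937974 (0.052 with medians, and -0.37 to 0.11 when 1 array was left out, positive without replicate 1), chr7:111428075-111428298 (0.052, deposited ratios), chr7:111469703-111469985 (-0.11, mode), chr7:111631721-111633152 (0.037, loess) and chr7:112548341-112549693 (0.13, both channels). The cause was not tested. No paired analysis was possible because there was 1 group. Probes near background in the input limit all values of the dim regions.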
